A study of Laxus oneistus with 16 samples.

Results

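Calexcitins are small calcium-binding proteins with EF-hand folds, first described in the nervous systems of molluscs, and *cex-1* and *cex-2* are the *Caenorhabditis elegans* genes of this family. Acetylcholine is the main excitatory transmitter at nematode neuromuscular junctions, and in *C. elegans* *acr-16* encodes the subunit of a nicotine-sensitive, levamisole-insensitive acetylcholine receptor of body wall muscle. When such a receptor opens, the muscle membrane depolarises, calcium enters the cytosol and troponin C releases the brake on the thin filaments. The expression of a cex-2-like transcript (TRINITY_DN50837_c0_g1_i1_4dedup) and an acr-16-like transcript (TRINITY_DN104911_c0_g1_i1_9dedup) of the marine nematode *Laxus oneistus* is described here, which are 2 of the 27984 transcripts counted. They were chosen by their identifiers, which the study's annotation matches to these names, and the study had listed them for their higher expression under anoxia with sulfide than under hypoxia. Therefore that difference is given below as a description, with no test.

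Whole adult *L. oneistus* carrying their coat of the bacterial ectosymbiont *Candidatus* Thiosymbion oneisti were collected from sand bars off Belize and incubated in batches of 50 worms for 24 h in the dark in filtered seawater, and each batch gave 1 library of rRNA-depleted RNA. The incubations were anoxic with 11 µM sulfide added (AS, 3 libraries), anoxic without added sulfide (A, 4 libraries, numbered 1, 2, 3 and 5), hypoxic in open vials (H, 3 libraries) and oxic in air-bubbled water (O, 6 libraries). All worms were wild-caught and no line or genotype was given. A level is the mean of a whole animal, so that fewer cells expressing a gene and less RNA per cell cannot be told apart.

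Library totals ranged from 9032241 to 18627740 reads. Replicates varied more than counting error, as the chi-square per degree of freedom was between 16.5 and 125 in 27 pairs of libraries of the same incubation. In 5 libraries (A3, A5, O2, O3 and O5) between 0.576% and 1.46% of the reads belonged to 6234 transcripts for which the remaining 11 libraries jointly held under 10 reads, and the share of these transcripts in any of those 11 reached at most 0.00555%. Of the transcripts that mark tissues in *C. elegans*, those of body wall muscle were not called between AS and H worms (edgeR FDR 0.468 for unc-54 and 0.571 for unc-15). The myosin heavy chain unc-54 averaged 4080 ± 818 CPM in AS worms and 3155 ± 638 CPM in H worms (SD, n = 3 each). The epidermal intermediate filament gene *ifb-1* averaged 957 ± 204 CPM in AS worms and 2323 ± 714 CPM in H worms (log2 fold change -1.29, edgeR quasi-likelihood FDR 0.0353). The yolk protein gene *vit-6* differed in the same direction without passing the test (log2 fold change -1.24, FDR 0.0792), and so did the tubulin gene *tbb-4* (-0.79, FDR 0.0871). Their part in the values of the cex-2-like and acr-16-like transcripts was not tested.

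Levels are given as CPM, edgeR's depth-scaled read count, with library sizes adjusted by the trimmed mean of M values (TMM). CPM is not divided by transcript length, because no lengths were at hand, so the levels of different transcripts are not compared. Over all libraries, 94334 reads were assigned to cex-2-like and 369 to acr-16-like. The cex-2-like values had a fractional part in 15 of 16 libraries. Such fractions arise where a read also matches another transcript and is divided between them. The acr-16-like values were whole numbers in all 16 libraries. The 5 libraries with additional transcripts, which held 30.98% of all reads, held 32.1% of the cex-2-like reads and 21.1% of the acr-16-like reads.

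The calcium-binding cex-2-like transcript was highest in AS worms. AS replicates 1, 2 and 3 contained 10217, 6588 and 9498 reads, or 766, 469 and 653 CPM. A replicates 1, 2, 3 and 5 contained 4083, 4501, 4823 and 9444 reads, or 227, 256, 303 and 613 CPM. Replicate 5 thus lay above AS replicate 2, whereas the other A libraries lay in or below the range of the H libraries. H replicates 1, 2 and 3 contained 4956, 4394 and 3384 reads, or 371, 286 and 259 CPM. The 6 O libraries had between 3415 and 7581 reads, and their levels were narrowly spread, between 368 and 474 CPM with a median of 391 CPM.

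By their means, the incubations were ordered AS (629 ± 150 CPM, n = 3), O (403 ± 39.5 CPM, n = 6), A (350 ± 178 CPM, n = 4) and H (305 ± 58.7 CPM, n = 3; SD throughout). Neighbours in this order overlapped. AS overlapped with O through AS replicate 2 and O replicate 6 (469 and 474 CPM), and A overlapped with both O and H. AS and H libraries did not overlap, and neither did those of 27.2% of all 17324 transcripts tested among AS, A and H worms. The A mean depended on replicate 5, without which it was 262 ± 38.5 CPM (n = 3).

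The spread between batches was far above counting error for cex-2-like. The chi-square per degree of freedom within an incubation was 495 in AS, 1490 in A, 151 in H and 44.6 in O worms. The coefficient of variation was 23.9% in AS, 51.0% in A, 19.2% in H and 9.81% in O worms. The fitted biological coefficient of variation of cex-2-like in the AS, A and H libraries was 0.290, near the median of 0.258 over all tested transcripts. The O worms were thus the least and the A worms the most variable for this transcript, and the A value came down to 1 library.

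**Figure D1:**
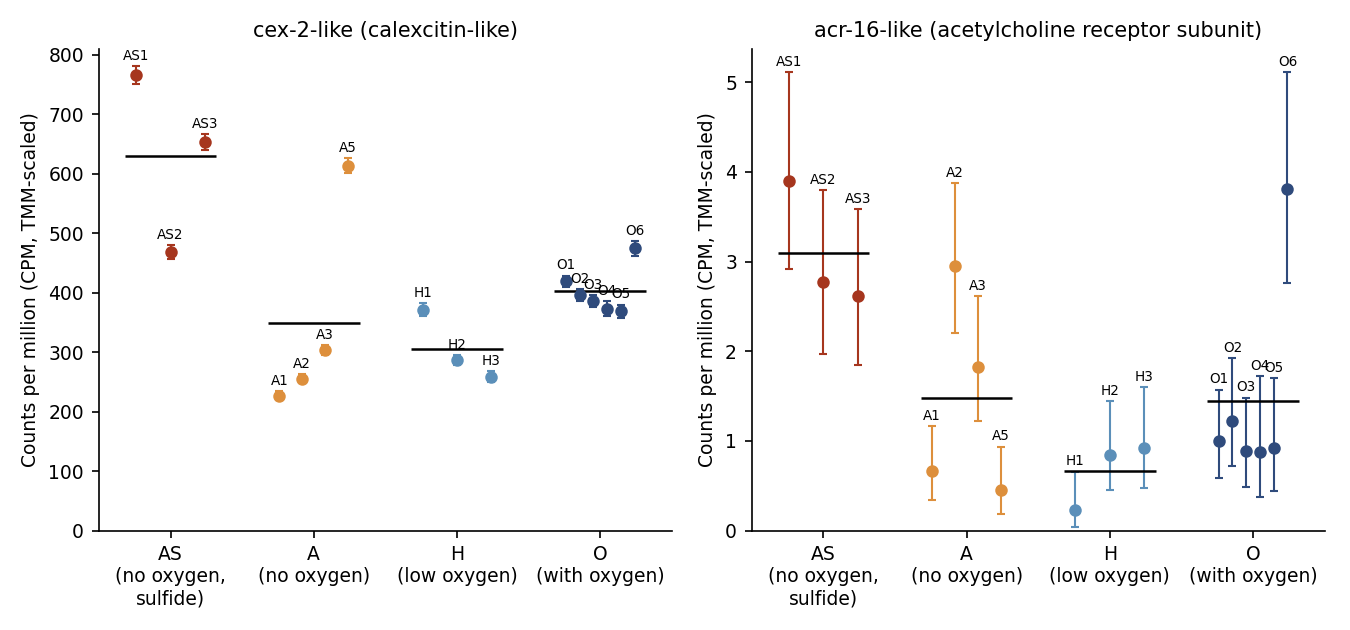
CPM of cex-2-like (left) and acr-16-like (right) in each of the 16 libraries, grouped by incubation, where each point is a library, its bar the exact 95% Poisson interval of its reads and the horizontal line the mean. The AS points lie above all H points in both panels, while A5 (613 CPM, left), A2 (2.95 CPM, right) and O6 (3.80 CPM, right) reach the AS range.

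The acr-16-like transcript, which encodes a putative acetylcholine receptor subunit, was also highest in AS worms, but rested on few reads. AS replicates 1, 2 and 3 contained 52, 39 and 38 reads, which correspond to 3.90, 2.77 and 2.61 CPM. A replicates 1, 2, 3 and 5 contained 12, 52, 29 and 7 reads, which correspond to 0.667, 2.95, 1.82 and 0.455 CPM, so that this incubation reached from the H range into the AS range. H replicates 1, 2 and 3 contained 3, 13 and 12 reads, which correspond to 0.225, 0.846 and 0.918 CPM. O replicates 1 to 6 contained 18, 18, 14, 8, 10 and 44 reads, and the highest of them (3.80 CPM) was at the level of AS replicate 1, whereas the others lay between 0.874 and 1.22 CPM.

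The mean levels of acr-16-like were 3.10 ± 0.701 CPM in AS (n = 3), 1.47 ± 1.16 CPM in A (n = 4), 0.663 ± 0.381 CPM in H (n = 3) and 1.45 ± 1.16 CPM in O worms (n = 6; SD throughout). The A and O means were nearly the same, and both had an SD almost as large as the mean. Without O replicate 6 the O mean was 0.979 ± 0.142 CPM (n = 5), and without A replicate 2 the A mean was 0.982 ± 0.736 CPM (n = 3). The AS libraries overlapped with A (replicate 2) and with O (replicate 6), and the H libraries overlapped with A and O.

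Counting error alone was sizeable for acr-16-like. The 3 reads of H replicate 1 had an exact 95% Poisson interval of 0.619 to 8.77 reads, and the 52 reads of AS replicate 1 one of 38.8 to 68.2 reads. These intervals cover counting error only. The lowest bound among the AS libraries was 1.85 CPM (replicate 3) and the highest among the H libraries was 1.60 CPM (replicate 3). As the transcript was listed for this difference, the gap between these bounds is a description and not evidence. Batches still differed beyond counting error in A and O worms, where the chi-square per degree of freedom was 15.2 and 11.4, and less so in AS (2.19) and H worms (2.93). In O worms the spread came down to replicate 6, without which the SD fell from 1.16 to 0.142 CPM. The biological coefficient of variation fitted to AS, A and H worms was 0.586, higher than in 89.6% of the transcripts. Only 13 of 16 libraries contained at least 10 reads, and acr-16-like passed the filter on low counts through the AS, A and O libraries and not through H.

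The fitted log2 fold changes of cex-2-like (edgeR, quasi-likelihood fit) were 1.03 (SE 0.336) for AS minus H, 0.20 (SE 0.312) for A minus H and 0.83 (SE 0.309) for AS minus A. With O worms as reference, they were 0.64 (SE 0.250) for AS, -0.20 (SE 0.234) for A and -0.40 (SE 0.260) for H. AS worms were thus about 2.04-fold above H worms, whereas the A minus H value was smaller than its SE. Without A replicate 5, A minus H turned to -0.22 and AS minus A was 1.25. These comparisons share libraries, and all but A minus O use AS or H libraries from which the transcript was chosen. They are therefore given side by side and not as separate evidence.

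For acr-16-like, the fitted log2 fold changes were 2.19 (SE 0.756) for AS minus H, 1.14 (SE 0.711) for A minus H and 1.05 (SE 0.656) for AS minus A. With O worms as reference, they were 1.09 (SE 0.657) for AS, 0.03 (SE 0.621) for A and -1.11 (SE 0.726) for H. The A worms thus lay midway between AS and H worms on the log2 scale, with an SE of 0.711 above H and of 0.656 below AS. This rested on A replicate 2, without which A minus H was 0.57 and AS minus A was 1.62. The fitted difference between AS and H worms corresponded to 4.57-fold.

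**Figure D2:**
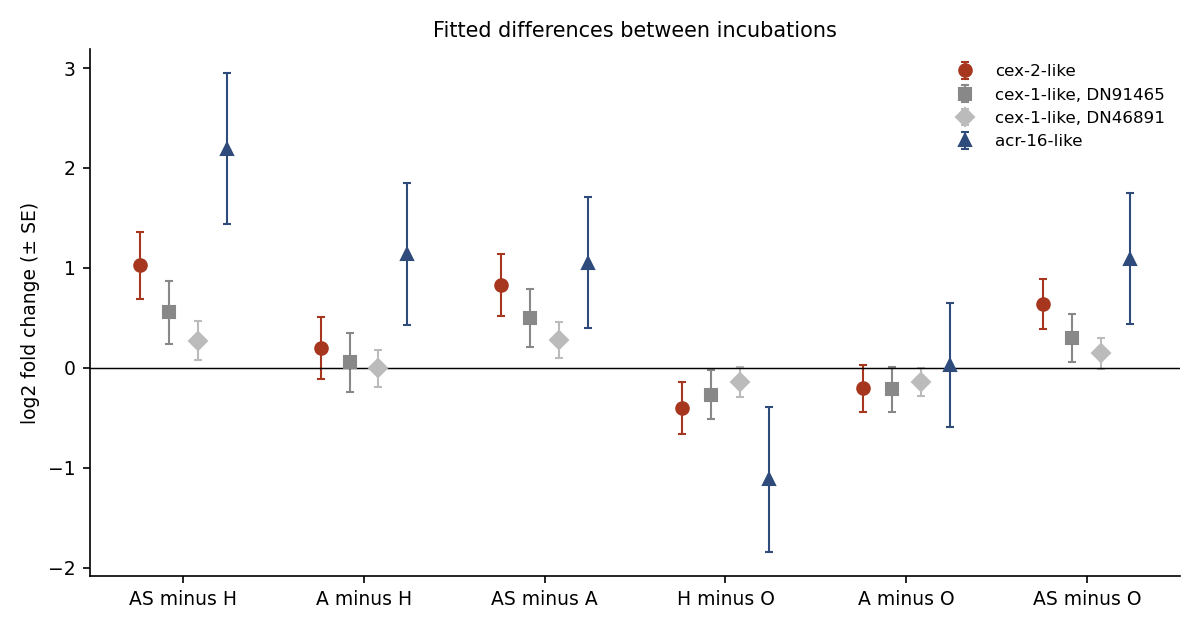
Fitted log2 fold changes (points) with their SE (bars) in 6 comparisons between incubations for cex-2-like, acr-16-like and the related cex-1-like transcripts. The values of acr-16-like had the widest bars, and for AS minus H the cex-2-like value of 1.03 lay above the cex-1-like values of 0.55 and 0.27.

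The comparison of A with O worms was tested, because the means it compares are not those the transcripts were chosen by. The AS and H libraries entered only the filter, the scaling and the estimate of the spread, and a fit of the A and O libraries alone gave nearly the same values (-0.21, FDR 0.998 for cex-2-like and 0.04, FDR 0.999 for acr-16-like). Of all 19093 transcripts, 0.131% were called (FDR no higher than 0.05, 1.5-fold or more; 25 transcripts, and 4 with the replicate number as a block), and neither cex-2-like nor acr-16-like was among them. The cex-2-like transcript averaged 350 ± 178 CPM in A worms and 403 ± 39.5 CPM in O worms, with a log2 fold change of -0.20 (95% interval -0.70 to 0.29, edgeR FDR 0.966). A two-sided exact permutation test of log2 CPM gave p = 0.276 over the 210 possible arrangements of these libraries. Across all tested transcripts, each of the 4 A libraries deviated from its condition mean together with the O library of the same number (r between 0.143 and 0.379). Among these pairs, cex-2-like was lower in A in replicates 1, 2 and 3 and higher in replicate 5 (two-sided exact sign-flip test, p = 0.500, where 4 pairs cannot go below 0.125), and the fit with the replicate number as a block gave -0.28 (FDR 0.812). The value depended on A replicate 5. Without it the fitted log2 fold change was -0.61 (FDR 0.282), and the exact test gave p = 0.0238, the smallest that the 84 arrangements allow. Replicate 5 was the only A library above the O libraries, and the others all lay below them. This p therefore follows from leaving that library out and is a description. Without the 5 libraries with additional transcripts the fitted value was -0.80 (FDR 0.847), and the exact p was 0.200 over 10 arrangements, the smallest that 2 A against 3 O libraries allow.

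The acr-16-like transcript averaged 1.47 ± 1.16 CPM in A worms and 1.45 ± 1.16 CPM in O worms, and its log2 fold change was 0.03 with a 95% interval of -1.29 to 1.34 (edgeR FDR 0.999, exact permutation p = 0.943). The interval spans changes of more than 2-fold in either direction, so that a difference of that size is not excluded. Over the same-numbered pairs, acr-16-like was lower in A in 2 of 4 (exact sign-flip p = 0.750), and the fit with the block gave 0.30 (FDR 0.921). The sign followed single libraries, as the value was -0.55 without A replicate 2 and 0.60 without O replicate 6.

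The nearest relatives of cex-2-like in the annotation were a pair of cex-1-like transcripts, DN91465 (TRINITY_DN91465_c0_g1_i1_9dedup) and DN46891 (TRINITY_DN46891_c1_g2_i1_4dedup), which encode calexcitin-like proteins as well. DN91465 averaged 277 ± 84.3 CPM in AS, 194 ± 77.4 CPM in A, 187 ± 48.1 CPM in H and 225 ± 26.2 CPM in O worms. DN46891 averaged 181 ± 29.7 CPM in AS, 147 ± 25.2 CPM in A, 148 ± 25.4 CPM in H and 163 ± 16.2 CPM in O worms. Both had their highest mean in AS worms, like cex-2-like, but their AS and H libraries overlapped, and neither was called for AS minus H (log2 fold change 0.55, FDR 0.343 and 0.27, FDR 0.460).

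A ratio of reads within a library does not depend on how libraries are scaled. The ratio of cex-2-like reads to the summed reads of both cex-1-like transcripts was 1.31, 1.27 and 1.57 in AS replicates 1, 2 and 3. In A replicates 1, 2, 3 and 5 it was 0.921, 0.876, 0.857 and 1.29. In H replicates 1, 2 and 3 it was 0.910, 1.096 and 0.771, and in the 6 O libraries it was between 0.927 and 1.13 with a median of 1.08. The ratio was thus higher in each AS library than in any H or O library, and A replicate 5 again lay within the AS range. As cex-2-like was listed for being higher in AS than in H worms, this separation of AS is not separate evidence. The mean ratio was 1.38 ± 0.164 in AS (n = 3), 0.987 ± 0.207 in A (n = 4), 0.926 ± 0.163 in H (n = 3) and 1.04 ± 0.0839 in O worms (n = 6). Between A and O worms the log2 ratio differed by -0.09 (two-sided exact permutation p = 0.457), and by -0.23 without A replicate 5 (exact p = 0.0238). The latter p again follows from leaving out the only A library above the O libraries. This ratio was chosen after the data had been seen.

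**Figure D3:**
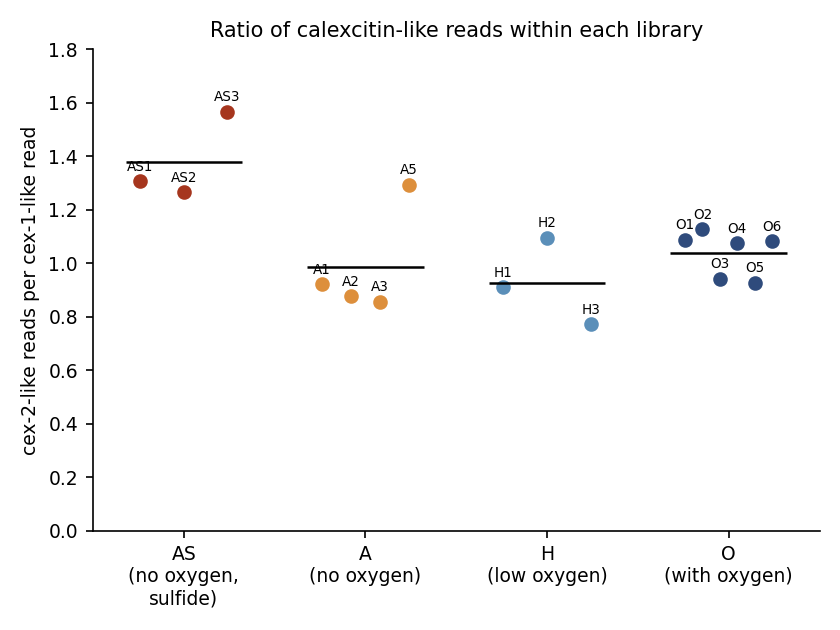
cex-2-like reads per read of the summed cex-1-like transcripts in each of the 16 libraries (points), with the mean of each incubation (lines). The AS libraries lie between 1.27 and 1.57, the H and O libraries at or below 1.13, and A5 at 1.29.

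Transcripts of related function were counted from lists drawn from the study's annotation, of which only a part was at hand. Of 35 such transcripts, 20 passed the filter among AS, A and H worms and 22 with O worms included. Between AS and H worms, where 1.98% of all transcripts tested were called, 0 of the 20 were called by edgeR. An unadjusted p under 0.05 was found in 2 of 20, and in 20.7% of all transcripts, and DESeq2 called 1 of 20, and 7.50% of all transcripts. Their median log2 fold change was 0.32, and 18 of 20 lay above 0, while the median over all 17324 transcripts was -0.02 and 48.6% lay above 0. The 20 are not separate observations, as cex-1-like, lev-11, mlc-3, atn-1 and nAChRa4 each count 2 times. A further limit is that 9 belong to the muscle calcium switch and that nAChRa4 passed the filter through AS alone. The lists were also chosen with earlier results known, and the count above 0 was not tested. No related transcript was called by edgeR in the other comparisons either. For A minus H, where 0.104% of all transcripts were called, 2 of 20 had an unadjusted p under 0.05 (8.14% of all transcripts) and DESeq2 called 1 (0.791% of all). For AS minus A, where edgeR called 0% of all transcripts, 2 of 20 had an unadjusted p under 0.05 (13.6% of all) and DESeq2 called 0 (2.55% of all). For H minus O, where edgeR also called 0%, 3 of 22 had an unadjusted p under 0.05 (12.9% of all) and DESeq2 called 0 (0.744% of all). For A minus O, 0 of 22 had an unadjusted p under 0.05 (7.58% of all) and DESeq2 called 0 (0.414% of all). For AS minus O, where edgeR called 0.571% of all transcripts, 2 of 22 had an unadjusted p under 0.05 (16.6% of all) and DESeq2 called 0 (3.03% of all). HTATSF1 and DN10299 passed the filter through the O libraries alone, which favours values below 0 for H minus O and AS minus O. They had 0 reads in each AS library and the lowest FDR of their lists for AS minus O (0.298).

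The 9 transcripts of the muscle calcium switch, which in nematodes acts through troponin on the thin filament and through myosin light chains, had AS minus H log2 fold changes between -0.21 and 0.89. The largest was that of the myosin light chain mlc-2, with 2614 ± 564 CPM in AS worms and 1393 ± 293 CPM in H worms (SD, n = 3 each). It was not called (log2 fold change 0.89, SE 0.330, FDR 0.155), but was called by DESeq2 (FDR 0.0482) and without the 5 libraries with additional transcripts (FDR 0.0341). The troponin C transcripts, pat-10-1 and pat-10-2, had log2 fold changes of 0.57 and 0.31 (FDR 0.305 and 0.415), and troponin I (tni-3) one of 0.30 (FDR 0.538). Troponin T (tnt-2) was at -0.21 (FDR 0.630), the tropomyosin lev-11 transcripts at 0.24 and 0.65 and the mlc-3 light chains at 0.30 and 0.04 (FDR 0.455 or more). The median of the 9 was 0.30.

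Of 4 further calcium-binding transcripts, *ost-1*, the gene of the extracellular matrix protein SPARC, averaged 2473 ± 620 CPM in AS worms and 1200 ± 413 CPM in H worms. Its log2 fold change of 1.03 was close to that of cex-2-like and was not called (SE 0.435, FDR 0.204), but was without the 5 libraries with additional transcripts (FDR 0.0439). The annexin nex-2 was at 0.33 (FDR 0.636) and the alpha-actinin atn-1 transcripts at -0.08 and 0.17 (FDR 0.580 or more).

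A further 10 transcripts carry calcium terms or an EF-hand domain in the annotation. In 8 of the 10, over 80% of the reads came from the 5 libraries with additional transcripts. Only RAB11FIP4 and SDF4 passed the filter among AS, A and H worms. With O worms included, HTATSF1 also passed, through the O libraries alone. It had 0 reads in each AS and H library and 0 to 60 reads in O libraries. Its log2 fold changes were -7.28 for H minus O, 0.53 for A minus O and -7.28 for AS minus O (FDR 0.298 or more). RAB11FIP4, named after an EF-hand effector of the Rab11 GTPase, had 4 to 10 reads in AS and 1 to 4 reads in H libraries (log2 fold change 1.72, FDR 0.402). It passed the filter through the A libraries alone, with 5 to 89 reads, which favours values above 0 for A minus H. SDF4, named after a calcium-binding protein of the Golgi lumen, had 11 to 14 reads in AS and 6 to 13 reads in H libraries (log2 fold change 0.43, SE 0.726, FDR 0.784).

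The relatives of acr-16-like were 10 transcripts with the domains of ligand-gated ion channels, which hold few reads like acr-16-like itself. Of these, 3 passed the filter among AS, A and H worms and 0 were called. For nAChRa4 (DN109670), named after an insect nicotinic receptor subunit, 11 to 17 reads were counted in AS libraries and 0 to 8 reads in H libraries (log2 fold change 1.82, SE 1.00, FDR 0.326). The other nAChRa4 transcript (DN112557) had 11 to 18 reads in AS and 4 to 17 reads in H libraries (log2 fold change 0.26, SE 0.886, FDR 0.900). Both nAChRa4 transcripts passed the filter through the AS libraries alone, which favours values above 0 for AS minus H. The unnamed DN104278 had 4 to 19 and 1 to 6 reads in AS and H libraries (log2 fold change 1.104, SE 0.902, FDR 0.526). Among those not tested, CHRNA9, named after a vertebrate nicotinic subunit, had 9 to 15 reads in AS libraries and 0 to 4 reads in H libraries, and DN107758 had 4 to 12 reads in AS libraries and 0 in each H library. The others not tested between AS and H worms, DN100452, lgc-31, DN104823, DN11033 and DN10299, went the other way. Their means were 0.387, 0.359, 0.281, 0.446 and 0 CPM in AS and 0.420, 0.560, 0.466, 0.626 and 0.050 CPM in H worms. With O worms included, DN10299 was tested, as it passed the filter through the O libraries alone. Its log2 fold changes were -4.51 for H minus O, 0.20 for A minus O and -7.24 for AS minus O (FDR 0.298 or more). The AS and H libraries did not overlap for 1 of the 3 tested, beside 27.2% of all transcripts tested. Together, the 10 channel transcripts reached 5.57 ± 0.490 CPM in AS, 6.04 ± 2.03 CPM in A, 3.67 ± 1.24 CPM in H and 5.49 ± 1.96 CPM in O worms. One of them, DN10299, had over 90% of its reads in the 5 libraries with additional transcripts, and the remaining channel transcripts reached 5.57 ± 0.490 CPM in AS, 4.54 ± 0.373 CPM in A, 3.62 ± 1.15 CPM in H and 4.19 ± 1.07 CPM in O worms.

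**Figure D4:**
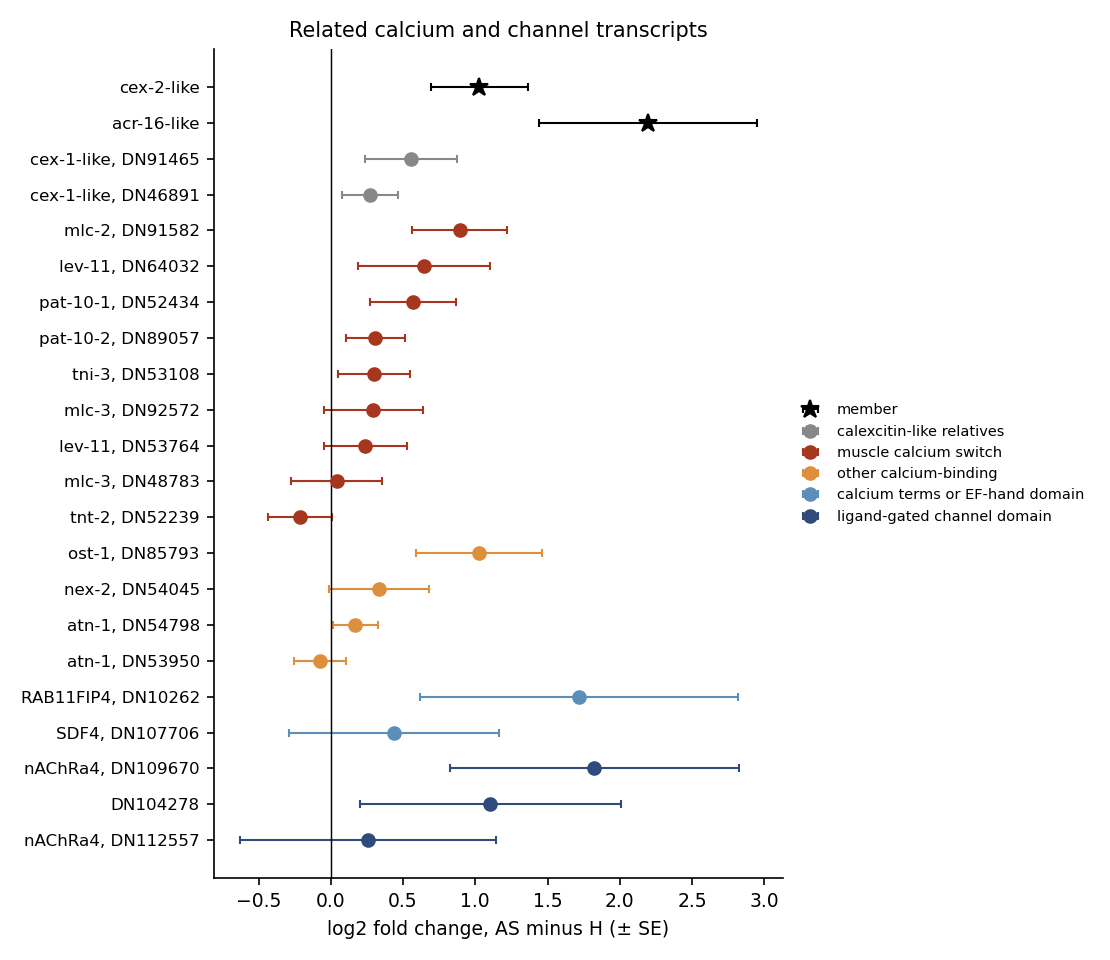
Log2 fold changes for AS minus H (points) with their SE (bars) of cex-2-like, acr-16-like (stars) and the 20 related transcripts that passed the filter, coloured by list. Of the 20, 18 lie above 0 and none was called by edgeR. The nAChRa4 pair passed the filter through the AS libraries alone. The largest values, 1.82 and 1.72, are those of transcripts with few reads.

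Over the 16 libraries, the cex-2-like and acr-16-like transcripts were weakly correlated. Pearson's r of log2 CPM was 0.33 and Spearman's rho 0.38. Leaving out AS replicates 1 and 3, which lay farthest from the cex-2-like median, gave r = -0.00 over 14 libraries. Over the 11 libraries without additional transcripts, which include AS replicates 1 and 3, r was 0.54 and rho 0.61. The strength of the relation thus depended on which libraries were included. A replicate 5 was the clearest case of divergence, with 613 CPM of cex-2-like, the third-highest of all libraries, and 0.455 CPM of acr-16-like, the second-lowest.

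The transcripts most like cex-2-like among the 19093 were DN49936 (r = 0.957), DN94508 (r = 0.956) and DN44890 (r = 0.951 over 16 libraries), which have no name in the part of the annotation at hand. With r = 0.971, 0.955 and 0.946 they were similarly close over the 11 libraries without additional transcripts. All of them share the high value of A replicate 5, in which DN94508 had 566 CPM, compared with a mean of 572 ± 173 CPM in AS and 226 ± 21.4 CPM in H worms. The fourth in rank (r = 0.945) was DN91465_c0_g2, assembled in the same component as the cex-1-like transcript DN91465_c0_g1, with 184 ± 40.0 CPM in AS, 101 ± 32.95 CPM in A, 93.1 ± 21.6 CPM in H and 110 ± 14.4 CPM in O worms. It was named here after its rank had been seen. The cex-1-like transcripts themselves ranked 12th (r = 0.900) and 384th (r = 0.744). The named transcripts of highest correlation were rpl-33, a ribosomal protein gene (r = 0.912), the myosin light chain mlc-2 (r = 0.911) and the nucleoside diphosphate kinase ndk-1 (r = 0.900). In A replicate 5 they reached 486, 2651 and 222 CPM, compared with means of 329 ± 105, 1587 ± 748 and 116 ± 71.8 CPM in A worms.

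The transcripts most like acr-16-like were DN46906 (r = 0.902), DN86669 (r = 0.872) and DN47427 (r = 0.850), with r = 0.924, 0.898 and 0.847 over the 11 libraries without additional transcripts. They also had no name in the part of the annotation at hand. O replicate 6 was high in each. DN46906 had 21.8 CPM there and at most 18.7 CPM in the other O libraries, DN86669 had 16.1 CPM there and at most 9.94 CPM, and DN47427 had 101 CPM there and at most 83.8 CPM. Their spread over the incubations was smaller than that of acr-16-like, as DN46906 averaged 24.96 ± 2.04 CPM in AS, 18.1 ± 2.71 CPM in A, 15.0 ± 1.22 CPM in H and 17.7 ± 2.59 CPM in O worms. The named transcripts of highest correlation were unc-52-like, related to the basement membrane proteoglycan perlecan (r = 0.679), a plasminogen-like transcript (r = 0.650) and the transthyretin-related ttr-35 (r = 0.642). The correlations are across libraries that share incubations and describe these 16 libraries only.

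**Figure D5:**
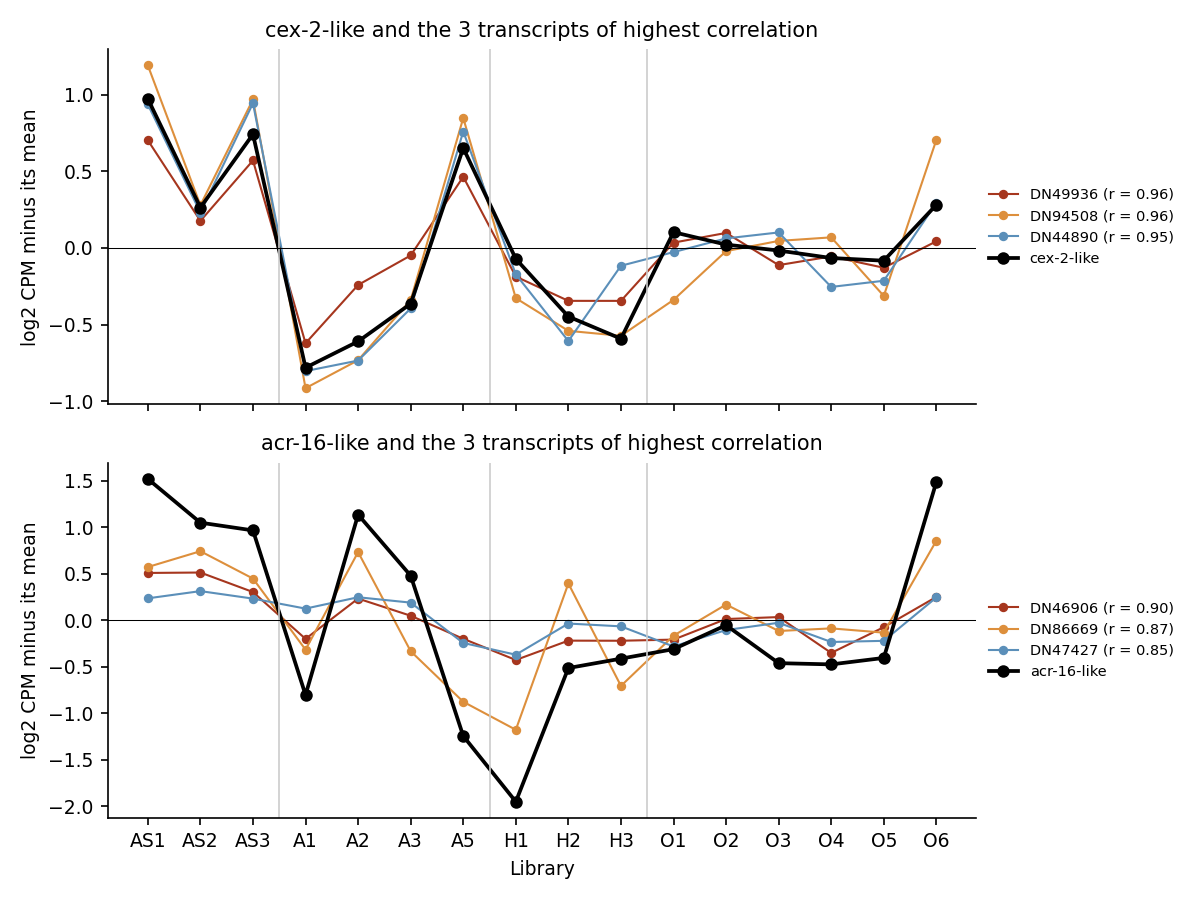
Log2 CPM minus its 16-library mean in each library for cex-2-like (top) and acr-16-like (bottom), in black, and for the 3 transcripts of highest Pearson's r with each, in colour. Lines join the values of a transcript and imply no order of replicates. In the upper panel all lines are high in A5, and in the lower panel all are high in O6.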

How the data were processed

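RNA of 16 batches of *L. oneistus* was compared, with each library in the condition its label gives. After discarding reads of the symbiont, the authors built a *de novo* transcriptome, mapped to it with Bowtie2 and deposited RSEM 1.3.1 expected counts for 27984 transcripts, neither normalized nor divided by length. Multi-mapping reads are divided between transcripts, so similar family members may exchange reads. Counts were rounded.

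A transcript entered the tests when 3 or more replicates of any condition held 10 reads or more. With edgeR 4.0.16 (R 4.3.3), TMM scaling, a quasi-likelihood F-test and adjustment by Benjamini and Hochberg were applied in a fit of the 10 AS, A and H libraries (17324 transcripts) or of all 16 for comparisons with O (19093). Calls needed an FDR of at most 0.05 and at least 1.5-fold. CPM used TMM over 16 libraries, and log2 CPM a prior count of 2. The fits were tested on simulated data, in which 200 transcripts of at least the median read count were changed. A log2 change of 1 was recovered in 54% of them for AS minus H and in 72% for A minus O. For a change of 2 the shares were 100% and 98%. The simulation does not cover acr-16-like, as only 17.9% of transcripts had a lower mean CPM. DESeq2 1.42.0, other scalings, no filter, the compared groups only, the replicate number as a block, and libraries left out were alternatives. The labels do not say what a shared replicate number stands for, and pairing rests on correlated deviations from the condition means, found for A with O (r above 0.1 in 4 of 4 pairs). The sign-flip test of these pairs was added after the data had been seen. Exact tests, correlations and plots were made with scipy 1.17.1, numpy 2.4.6, matplotlib 3.10.9 and pandas 2.3.3 under Python 3.11.15. The labels do not say on which field trip a batch was collected, and p-values measure only the spread between these batches.

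The members and lists were chosen with earlier results of these data known. The rule was to name cex-2-like, acr-16-like, every listed transcript that passed the filter, and for each of the 2 the 3 transcripts of highest Pearson's r among all tested and among the 162 named ones. No transcript or protein sequence was used.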

Additional observations from a re-analysis of the deposited data

Results flagged for a closer look

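The level or ratio of a single library stood far from the others of its incubation in 3 of 10 groups of A or O libraries checked by Dixon's gap test. For a single group chance gives about 1 in 20, but these groups share libraries and reads and are not 10 separate checks. The acr-16-like level of O replicate 6 (3.80 CPM) was 1 of the 3, with the other O libraries at or below 1.22 CPM. In the same library the cex-1-like transcript DN91465 (275 CPM) lay above the other O libraries, the highest of which had 226 CPM. The ratio of cex-2-like to cex-1-like reads in A replicate 5 (1.29) lay above the other A libraries, the highest of which was 0.921. The causes were not tested.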

How the results depend on the processing

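For cex-2-like, the log2 fold change for AS minus H stayed above 0 in all 14 alternatives, with each replicate left out between 0.88 and 1.21 and in the other fits between 1.01 and 1.06, and for acr-16-like it was between 1.81 and 2.48 and between 2.19 and 2.41. For A minus H, cex-2-like, at 0.20, moved to -0.33 without the 5 libraries with additional transcripts, and with each replicate left out it was between -0.22 (without A replicate 5) and 0.37. For A minus O, acr-16-like, at 0.03, turned to -0.057 without these 5 libraries and to -0.072 as the difference of mean log2 CPM in the exact test, and with each replicate left out it was between -0.55 and 0.60. The cex-2-like value for A minus O was between -0.80 and -0.03 in all alternatives, and was never called. Without O replicate 6 and without A replicate 5, the log2 ratio of cex-2-like to cex-1-like reads for A minus O was -0.080 and -0.23. Related transcripts called for AS minus H were 1 with DESeq2 (mlc-2) and 2 without the 5 libraries (mlc-2 and ost-1). For A minus H, 1 (RAB11FIP4) was called with DESeq2, where 137 of all transcripts were called. For AS minus A, 1 (mlc-2) was called without the 5 libraries and between 0 and 1 with each replicate left out (1 without A replicate 5). Over all transcripts, 108 were called for AS minus A without the 5 libraries and 299 without A replicate 5, compared with 0 in the main fit. RAB11FIP4 passed the filter through the A libraries alone and dropped out of the fit without the 5 libraries. Among the related transcripts, leaving out each replicate gave AS minus H values on both sides of 0 for tnt-2 (-0.35 to 0.081), mlc-3 (DN48783, -0.18 to 0.18), nex-2 (-0.080 to 0.54), atn-1 (DN53950, -0.16 to 0.024) and nAChRa4 (DN112557, -0.12 to 0.80). The count of all transcripts called for AS minus H was 343, with 1300 under DESeq2, 944 without the 5 libraries and between 0 (without AS replicate 1) and 666 (without AS replicate 2) with each replicate left out.

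The replicate number as a block gave 1.01 for cex-2-like and 2.41 for acr-16-like for AS minus H, and 2 related calls (mlc-2 and ost-1). In that fit 804 of all transcripts were called for AS minus H, compared with 343 in the main fit. For cex-2-like the block gave -0.20 for A minus H and 1.22 for AS minus A. Same-numbered libraries deviated together with r above 0.1 in all 4 pairs of A and O, but in 6 of the 15 pairs of the other conditions, so that the numbers were taken as pairs only for A minus O, where the block changed no call of the named transcripts. Pairs of A and H came close (r = 0.216, 0.0988 and 0.250), so this choice rests on the limit of 0.1. A3 was nearest to O2, and A3, O3, A5 and O5 are all among the 5 libraries with additional transcripts. Whether these transcripts gave the correlation was not tested.

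The 3 to 52 reads of acr-16-like per library limit its precision, and the 3 libraries each of AS and H limit that of both transcripts.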
